A study of Cordyceps militaris with 6 samples.

Results

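Passage 4 of YCC, a strain of Cordyceps militaris, was set against passage 1 of the same strain. This ascomycete parasitises insects and is grown for its fruiting bodies. The comparison used 2 of the 6 libraries of the series, with passages 2, 3, 5 and 6 beside it to show where passage 4 differs from its neighbours. It covered 8483 of the 10385 genes in the deposited table, those with a mean of at least 1 FPKM (fragments per kilobase of gene, scaled to library size) over the 6 libraries. Each library was poly(A) RNA from mycelium grown in shaken liquid potato dextrose medium for 72 h in the dark at 25 °C. The strain, tissue and culture were the same in all 6, and the labels differ in passage number. There was 1 library per passage, so differences between passage 4 and passage 1 are values without a test, and intervals cover counting error only.

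Repeated subculture of C. militaris can end in degeneration, in which a strain loses vigour and the ability to form fruiting bodies, and the series was designed to follow the transcriptome along that course. A filamentous fungus builds its hyphal wall from chitin, glucans and mannoproteins, which synthases lay down and secreted hydrolases such as chitinases remodel. Catalases, peroxidases and glutathione S-transferases remove hydrogen peroxide and other reactive compounds, and fungi degrade tagged proteins through ubiquitin ligases and the proteasome. Cordycepin, the adenosine analogue for which the species is known, is made by a cluster of 4 neighbouring genes.

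The passage 4 library held 12915930 expected counts and the passage 1 library 9740171, within 9740171 to 13813999 over the 6 libraries. Elongation factor 1-alpha (CCM_00809), an abundant gene of growing cells, had 8429 FPKM in passage 4 and 8587 FPKM in passage 1. Actin (CCM_03787) had 1463 and 1742 FPKM in the same order. By the scaled log2 ratios used below, these genes lay at -0.31 and -0.53. Of the other markers of growing hyphae, chitin synthase genes ran from -1.98 (CCM_02966) to -0.23 (CCM_08096). Tubulin genes ran from -0.30 (CCM_02285) to 0.63 (CCM_07292). The 6 genes found by a search of product names for conidiation markers summed to 298 FPKM in passage 4 and 538 FPKM in passage 1, with 260 to 421 FPKM in passages 2, 3, 5 and 6. Para-aminobenzoate synthase PabaA (CCM_07158) was caught by its name alone and is not counted as a marker here. It supplied 179 FPKM in passage 4 and 217 FPKM in passage 1. Without it, the markers summed to 119 FPKM in passage 4 and 321 FPKM in passage 1, with 58.7 to 132 FPKM in the others. Most of that sum was the transcription factor gene AbaA (CCM_05444), at 81 FPKM in passage 4 and 232 FPKM in passage 1. The markers CCM_02232 and CCM_00714 were also lower in passage 4, at -1.12 and -2.39 log2. CCM_06097 and CCM_05902 were higher, at 0.50 and 2.68 log2. CCM_05902 had 6 counts in passage 4 and 0 in passage 1. The sum therefore does not describe the markers as a set. The part of conidiation in the results was not tested, and in bulk RNA fewer cells of a type cannot be told apart from less RNA per cell.

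Where the product has a name and either library reached 10 FPKM, the highest ratio of passage 4 over passage 1 belonged to a transporter of the major facilitator superfamily (CCM_08483) and the lowest to another one (CCM_08259). Between the libraries, 900 genes were at least 2-fold higher in passage 4 (10.6% of 8483) and 846 at least 2-fold lower (9.97%), on TMM-scaled log2 CPM (counts relative to library size). TMM is a scaling that assumes most genes are alike between libraries. By this scaling 51.5% of these genes were higher in passage 4. With FPKM as deposited 75.4% were, and the median of all genes lay at 0.30 log2 in place of 0.02.

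Among genes higher in passage 4, the transporter CCM_08483 of the major facilitator superfamily had 19.4 FPKM in passage 4 and 0.13 FPKM, or 2 counts, in passage 1 (log2 ratio 6.51, 95% interval 5.07 to 9.98). Passages 2, 3, 5 and 6 held 5.85, 36.4, 13.9 and 3.04 FPKM of it, so passage 4 lay inside their range. The trypsin-like serine protease CCM_03489 had 5500 counts in passage 4 and 96 counts in passage 1, a 35.3-fold ratio. Cysteine synthase B (CCM_00844), which makes cysteine from an activated serine, had 477 FPKM in passage 4 and 19.9 FPKM in passage 1. The copper importer of the Ctr family (CCM_03291) stood at 35.9 FPKM in passage 4, against 1.56 FPKM in passage 1. Each of these was also higher than passage 1 in every other later passage.

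Among genes lower in passage 4, the class III chitinase ChiA1 (CCM_06535), which cleaves chitin, had 109 FPKM in passage 4 and 1493 FPKM in passage 1, 16.6-fold lower. The transporter CCM_08259 had 5 counts in passage 4 and 390 in passage 1 (log2 ratio -6.69, interval -8.60 to -5.74). A phospholipase A2 (CCM_07919), of the family that releases fatty acids from membrane lipids, had 5.57 FPKM in passage 4 and 138 FPKM in passage 1. The wall protein SED1 (CCM_08945) had 80.9 FPKM in passage 4, against 790.3 FPKM in passage 1. Cellobiose dehydrogenase (CCM_06091), a secreted oxidase of cello-oligosaccharides, had 3.18 FPKM in passage 4 and 42.5 FPKM in passage 1. All 5 were also below passage 1 in passages 2, 3, 5 and 6, at 112 to 203 FPKM for ChiA1.

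Of 29 gene lists drawn from the product text, 14 had a median ratio above that of all genes. Of 104 chitin and cell wall genes measured, 14 were at least 2-fold higher in passage 4 (13.5%, beside 10.6% of all genes). Another 31 were at least 2-fold lower (29.8%, beside 9.97%). The list had a median of -0.44 log2 against 0.02 for all genes. Chitin synthases lay on the lower side, and CCM_02966 had 90.8 FPKM in passage 4 and 294 FPKM in passage 1. A galactomannoprotein, CCM_00410, went the other way: it had 46 counts in passage 4 and 0 in passage 1, at least 9.53-fold higher against a floor of 3 counts per library. Among zinc cluster proteins, transcription factors that occur in fungi, 5 of 172 were higher (2.91%) and 22 lower (12.8%, beside 9.97%). Their median was -0.24 log2. CCM_05638 of that family had 344 FPKM in passage 4, against 2516 FPKM in passage 1. Of 56 ABC transporters 2 were higher (3.57%) and 16 lower (28.6%), with a median of -0.46. The medians of these lists were also below that of all genes in passages 2, 3, 5 and 6. There they were -0.31 to -0.42 for chitin and cell wall genes and -0.24 to -0.39 for zinc cluster proteins. For ABC transporters they were -0.61 to -0.74, so passage 4 was the least low of the later passages.

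Ribosomal protein genes had a median of 0.31 log2, with 19 of 151 at least 2-fold higher in passage 4 (12.6%, beside 10.6% of all genes) and 3 lower (1.99%, beside 9.97%). In oxidative phosphorylation 10 of 68 were higher (14.7%) and 1 lower (1.47%), and COX23 (CCM_06842), which helps to assemble cytochrome oxidase, had 6.29 FPKM in passage 4 and 0.83 FPKM in passage 1. Among 38 proteasome genes 4 were higher (10.5%, about the share of all genes) and 1 lower (2.63%), with 118 FPKM of the core subunit PRE3 (CCM_08753) in passage 4 and 39.7 FPKM in passage 1. Of 61 antioxidant genes 8 were higher (13.1%) and 2 lower (3.28%), with a median of 0.32. Medians in passages 2, 3, 5 and 6 were 0.36 to 0.43 for ribosomal proteins and 0.30 to 0.43 for oxidative phosphorylation. They were 0.31 to 0.46 for the proteasome and 0.29 to 0.39 for antioxidant genes. Gene length moved with these differences: across 8483 genes the rank correlation of the passage 4 ratio with length was -0.37, as a description, and -0.34 to -0.44 in passages 2, 3, 5 and 6. The median length was 0.946 kb for the genes higher in passage 4, 1.88 kb for those lower and 1.49 kb for all. With the length trend removed, the antioxidant list lay at -0.089 log2 against all genes and the ABC transporters at 0.0028, on the other side of 0 in both cases.

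**Figure D1:**
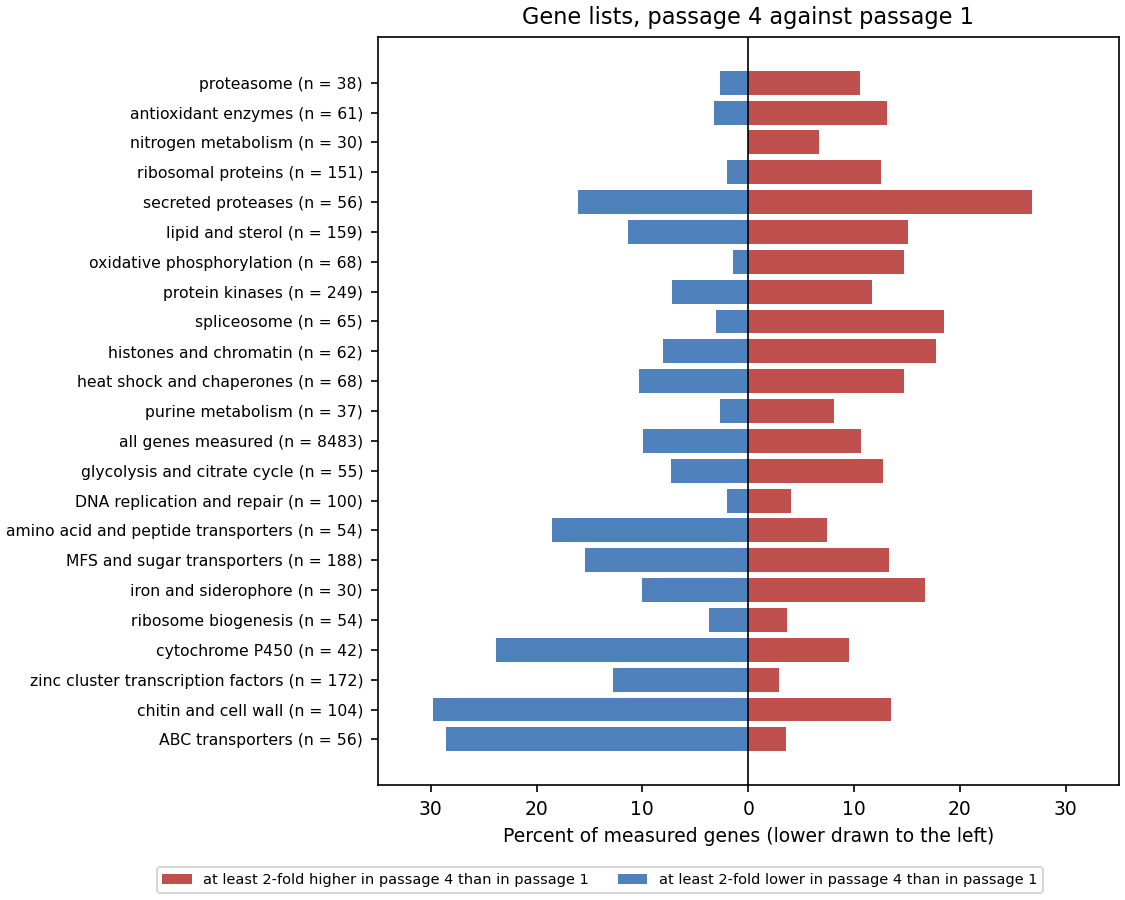
The bars give the percent of measured genes of each list of at least 20 genes that were at least 2-fold higher in passage 4 (red, to the right) or at least 2-fold lower (blue, drawn to the left) than in passage 1, in order of the list's median ratio. ABC transporters and chitin and cell wall genes have long bars to the left (28.6% and 29.8%, beside 9.97% of all genes), while the bar of ribosomal proteins to the right (12.6%) is close to that of all genes (10.6%).

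The 4 cordycepin genes did not move as one. The oxidoreductase gene of the cluster, cns1 (CCM_04436), had 135 FPKM in passage 4 and 238 FPKM in passage 1, a log2 ratio of -1.10 (interval -1.16 to -1.04). In passages 2, 3, 5 and 6 it had 176, 68.0, 73.3 and 250.5 FPKM. Its partner cns2 (CCM_04437) had 278 FPKM in passage 4 and 215 FPKM in passage 1, and cns3 (CCM_04438), which also takes part in forming the pentostatin that protects cordycepin, had 62.5 and 49.7 FPKM in the same order. Both had ratios near 0 on the TMM scale (0.09 and 0.05 log2). The transporter gene cns4 (CCM_04439) had 11 FPKM in passage 4 and 15 FPKM in passage 1.

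Genes of development differed in both directions. AbaA (CCM_05444), a regulator of conidiophore development in Aspergillus, had 81 FPKM in passage 4 and 232 FPKM in passage 1, while a second gene of that name (CCM_06097) had 4.88 FPKM in passage 4 and 2.83 FPKM in passage 1. The velvet protein VeA (CCM_04531), which couples development to light in Aspergillus, had 32.1 FPKM in passage 4 and 86.1 FPKM in passage 1, and the mating-type gene MAT1-1-1 (CCM_06523) had 2.32 and 6.66 FPKM in the same order. On the higher side, the FluG domain gene TCONS_00012363 had 5.65 FPKM in passage 4 and 1.58 FPKM in passage 1, and FIG1 (CCM_01276), a membrane protein of yeast mating, had 47.2 FPKM in passage 4 and 13.4 FPKM in passage 1. Of 13 mating and fruiting body genes 1 was at least 2-fold higher (7.69%) and 4 lower (30.8%), with a median of -0.53 log2. Of 9 conidiation genes 3 were higher (33.3%) and 3 lower (33.3%), with a median of 0.50 log2, both medians against 0.02 for all genes. Of all genes 10.6% were higher and 9.97% lower. Among 6 hydrophobins, small proteins that coat aerial surfaces, CCM_07964 had 269.6 FPKM in passage 4 and 66.2 FPKM in passage 1, while the trihydrophobin TCONS_00009105 had 6.91 FPKM in passage 4 and 32.6 FPKM in passage 1.

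Few genes set passage 4 apart from every other library. At least 2-fold above all 5 others were 4 genes (0.0472%), and at least 2-fold below all 5 were another 4 (0.0472%). The same rule applied to passages 2, 3, 5 and 6 gave 5, 14, 12 and 58 genes above and 21, 37, 10 and 23 below, so passage 4 had the fewest on both sides among these 5 passages.

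Catalase A (CCM_02506), which breaks hydrogen peroxide down to water and oxygen, had 154 FPKM in passage 4 and 63.2 FPKM in passage 1. Passages 2, 3, 5 and 6 held 8.48, 21.0, 26.9 and 67.8 FPKM of it. Passage 4 was the highest of the 6 libraries, at 2.00-fold over passage 1 (log2 ratio 1.00, interval 0.92 to 1.09), and it left this group when DESeq2's size factors replaced TMM. Reads across the gene's splice junction, a separate table of the same libraries, numbered 500 in passage 4 and 162 in passage 1, with 34, 63, 73 and 218 in passages 2, 3, 5 and 6. The neighbours CCM_02505 (45.9 FPKM in passage 4 and 40.8 FPKM in passage 1) and CCM_02507 (28.1 and 39.4 FPKM in the same order) were closer to level.

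The integral membrane protein gene CCM_01198 had 73.4 FPKM in passage 4 and 29.5 FPKM in passage 1, and 23.4, 36.1, 27.1 and 34.2 FPKM in passages 2, 3, 5 and 6. All 5 other libraries lay within 23.4 to 36.1 FPKM. Variant sites are positions where some reads differ from the reference sequence. Reads over 12 such sites of the gene numbered 3474 in passage 4 and 1107 in passage 1, before scaling to library size. Passages 2, 3, 5 and 6 had 2214 to 2388, so passage 4 was less far above them than by FPKM. A 4-aminobutyrate aminotransferase (CCM_03453), an enzyme that degrades 4-aminobutyrate, had 4.80 FPKM in passage 4, or 85 counts, and 0.60 FPKM in passage 1, or 8 counts. The other libraries had 0.42 to 1.5 FPKM of it. The remaining gene above all others, CCM_08218, encodes a hypothetical protein.

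On the low side, the gene annotated as pyruvate/phosphoenolpyruvate kinase (CCM_05734) had 26.1 FPKM in passage 4 and 76.7 FPKM in passage 1, a log2 ratio of -1.83 (interval -2.02 to -1.66). Passages 2, 3, 5 and 6 held 217, 55.8, 57.0 and 189.8 FPKM. Passage 4 was the lowest, and its 225 junction reads were also the fewest, against 426 in passage 1 and 382 to 1856 in the others. The other members were low throughout. The LYR protein gene CCM_04057 had 8 counts in passage 4 and 12 in passage 1, the galactomannoprotein CCM_02088 had 3 and 6 counts in the same order, and the hypothetical protein gene CCM_06467 had 0.30 FPKM in passage 4 and 1.18 FPKM in passage 1. The counting intervals of CCM_02088 and CCM_04057 spanned 0, at -4.31 to 0.54 and -2.77 to 0.14 log2. The low level of CCM_06467 rested on 4 counts in passage 4 and 12 in passage 1. Reads over its 110 variant sites numbered 3252 in passage 4 and 1566 in passage 1, with 2336 to 2835 in the others, before scaling to library size. By those reads passage 4 was the highest library and not the lowest, and the reason was not tested.

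**Figure D2:**
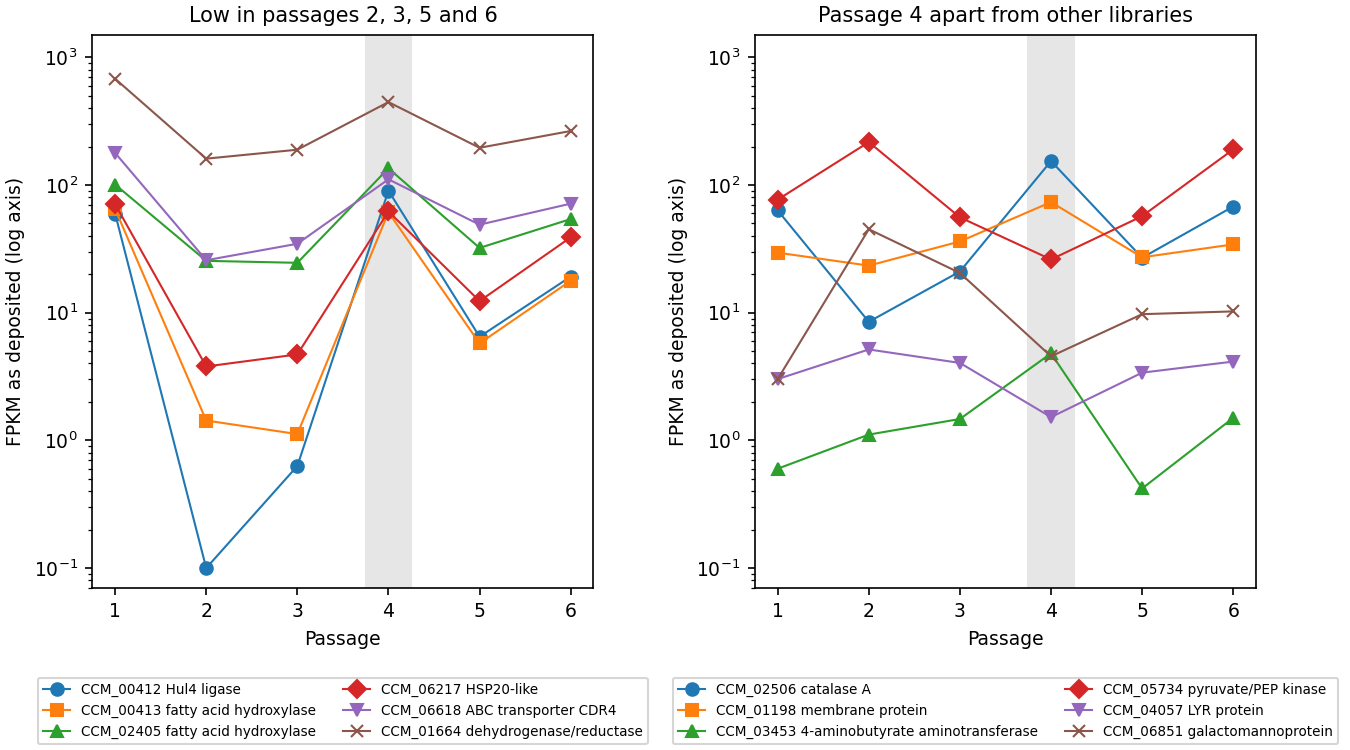
FPKM as deposited is plotted on a log axis for passages 1 to 6, 1 library each, with passage 4 shaded; the left panel shows genes that were low in passages 2, 3, 5 and 6, and the right panel genes whose passage 4 level lay apart. In the left panel CCM_00412 stands at 90.2 FPKM in passage 4 and 59.7 in passage 1 but at 0.10 to 19.1 in the others, and in the right panel catalase A peaks at 154 FPKM in passage 4.

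A second pattern was a difference of less than 2-fold from passage 1 in passage 4 where passages 2, 3, 5 and 6 had one of at least 2-fold. In this group 55 genes (0.648%) were at least 2-fold lower than passage 1 in passages 2, 3, 5 and 6 but not in passage 4. Another 48 genes (0.566%) were at least 2-fold higher in those passages but not in passage 4. All 5 comparisons share the passage 1 library. With another passage left out in this way, the lower genes numbered 62, 7, 11 and 106 and the higher ones 68, 32, 16 and 86 for passages 2, 3, 5 and 6, so the counts for passage 4 lay inside that range.

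The widest gap was at the ubiquitin ligase gene Hul4 (CCM_00412), a HECT-type ligase in yeast that attaches ubiquitin to proteins. It had 90.2 FPKM in passage 4 and 59.7 FPKM in passage 1 (log2 ratio 0.31, interval 0.14 to 0.49). In passages 2, 3, 5 and 6 it had 0.10, 0.63, 6.48 and 19.1 FPKM, or 1, 5, 58 and 190 counts, against 849 counts in passage 4 and 424 in passage 1. Passages 2 and 3 were nearly without it, passages 5 and 6 were intermediate, and only passages 4 and 1 were high. Junction reads of the gene had the same order, with 170 in passage 4 and 70 in passage 1, none listed in passages 2 and 3, 9 in passage 5 and 54 in passage 6. A junction is listed from 5 reads, so an unlisted one may hold up to 4.

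Its neighbour CCM_00413, a fatty acid hydroxylase of the family that acts on lipids and sterols, was likewise high in passages 4 and 1, intermediate in passages 6 and 5 and low in passages 2 and 3. It had 61.1 FPKM in passage 4 and 64.8 FPKM in passage 1, and 1.43, 1.12, 5.75 and 17.8 FPKM in passages 2, 3, 5 and 6. The strand used in counting is not given, so reads of neighbours that overlap could not be told apart. The next gene, CCM_00414, with a CTLH domain, did not share the order: it had 184 FPKM in passage 4 and 88.0 FPKM in passage 1, and 156 to 192 FPKM in the others. On the other side, the galactomannoprotein genes CCM_00404, CCM_00410 and CCM_00411 peaked in passage 3, with 167 FPKM of CCM_00404 in passage 4, 44.8 FPKM in passage 1 and 719.7 FPKM in passage 3. The 2 genes CCM_00412 and CCM_00413 were thus flanked by genes with other profiles.

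**Figure D3:**
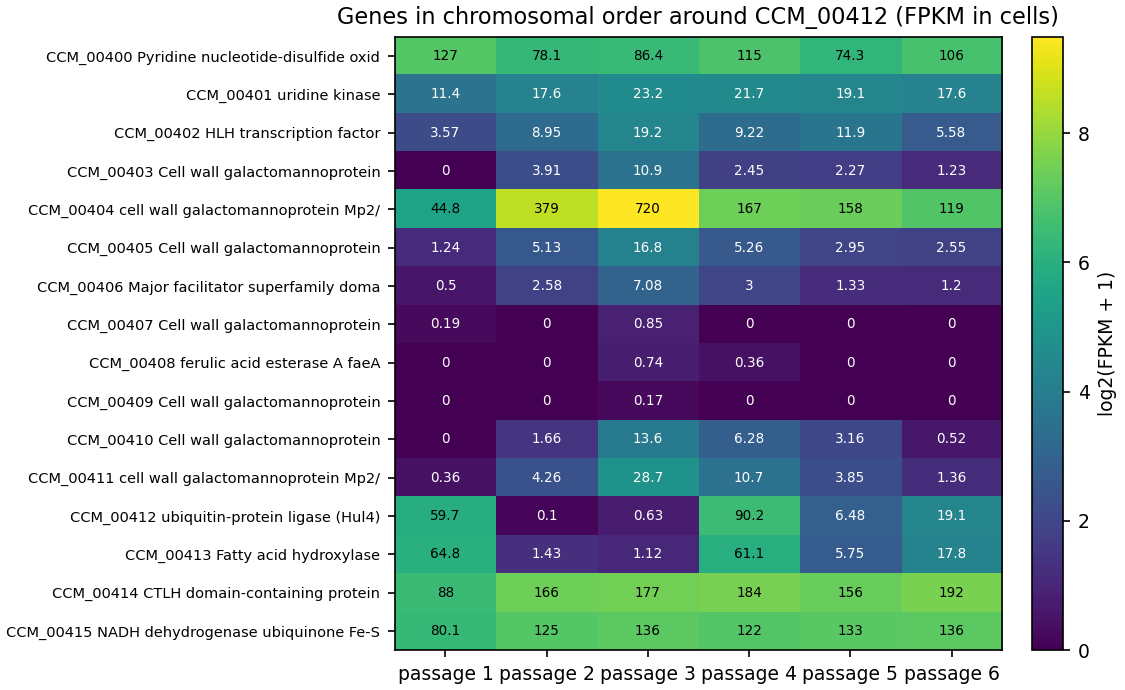
Each row is a gene from CCM_00400 to CCM_00415 in chromosomal order, each column a passage from 1 to 6, and the colour gives log2(FPKM + 1) with the FPKM written in the cell. The rows of CCM_00412 and CCM_00413 are bright in passages 1 and 4 and dark in passages 2 and 3, while CCM_00404 is brightest in passage 3 (719.7 FPKM).

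A second fatty acid hydroxylase gene at another locus, CCM_02405, had 135 FPKM in passage 4 and 101 FPKM in passage 1. Passages 2, 3, 5 and 6 had 25.4, 24.6, 32.1 and 54.1 FPKM, all below both. Reads over its 13 variant sites numbered 935 in passage 4 and 493 in passage 1, before scaling to library size. The others had 422 to 542, so passage 4 was highest by those reads too. Passage 1 was the smallest library, at 9740171 expected counts, so its unscaled reads cannot be ranked against those of the others. The HSP20-like chaperone gene CCM_06217, of the small heat shock proteins that hold unfolded proteins, had 62.0 FPKM in passage 4 and 70.7 FPKM in passage 1, with 3.79, 4.71, 12.3 and 38.9 FPKM in passages 2, 3, 5 and 6. Its neighbour CCM_06216, a hypothetical protein gene, had 6.65 FPKM in passage 4 and 3.50 FPKM in passage 1, with 0.11 to 1.85 FPKM in the others. By FPKM, passage 6 came next after passages 4 and 1 for each of these genes.

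Further genes of the group lay somewhat below passage 1 in passage 4 and further below it in the other passages. The ABC transporter CDR4 (CCM_06618), named after a Candida efflux pump, had 111 FPKM in passage 4 and 178 FPKM in passage 1, with 25.7 to 71.4 FPKM in the others. The short-chain dehydrogenase gene CCM_01664 had 446 FPKM in passage 4 and 679 FPKM in passage 1, with 161 to 264 FPKM in the others. The cation efflux ATPase CCM_01629 had 10.2 FPKM in passage 4, against 11.4 FPKM in passage 1 and 1.75 to 5.81 FPKM in the others. Neighbouring members also included CCM_06470, annotated as a Diels-Alderase, an enzyme type that closes rings in fungal polyketides. It had 1.89 FPKM in passage 4, or 27 counts, and 1.85 FPKM in passage 1, or 20 counts. In the others it had 0.46 to 0.85 FPKM, or 7 to 13 counts, so its values rest on few reads. Its neighbour CCM_06469, annotated as a fungal transcription factor, had 4.66 FPKM in passage 4 and 7.68 FPKM in passage 1, with 3.08 to 4.29 FPKM in the others. By log2 ratio CCM_06469 hardly differed from passages 2 and 6, at -0.99 in passage 4 against -1.04 and -1.07. It left the group when DESeq2's size factors replaced TMM. On the other side, next but one, the O-methyltransferase gene CCM_06472 had 31.4 FPKM in passage 4 and 40.3 FPKM in passage 1, but 64.3 FPKM in passage 6. That locus was chosen after its values were seen.

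Among the 48 genes that were higher in passages 2, 3, 5 and 6, the alpha-mannosidase family gene CCM_01417 (glycosyl hydrolase 92) had 18.7 FPKM in passage 4 and 10.4 FPKM in passage 1. The other passages had 30.7 to 51.2 FPKM, all above both. A galactomannoprotein, CCM_06851, had 4.55 FPKM in passage 4 and 3.02 FPKM in passage 1, with 45.0, 20.4, 9.73 and 10.2 FPKM in passages 2, 3, 5 and 6; it too was singled out after its values were seen. The DASH complex subunit DAM1 (CCM_01190), which ties kinetochores to spindle microtubules in yeast, had 14.5 FPKM in passage 4, against 6.63 FPKM in passage 1 and 17.8 to 23.9 FPKM in the others.

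Most of these 103 genes lay near the 2-fold threshold. The median log2 ratio of the 55 was -0.81 in passage 4 and -1.42, -1.41, -1.41 and -1.25 in passages 2, 3, 5 and 6, and the gap between passage 4 and the nearest of these passages was at least 1 log2 for 6 of the 55. Of the 48, the gap was that wide for 2, with a median of 0.85 in passage 4 against 1.30 to 1.37. Membership held under all 6 other settings of scaling, filter and prior count for 5 of the 55, CCM_00412, CCM_00413, CCM_02626, TCONS_00007069 and TCONS_00011263, and for 1 of the 48, CCM_01417.

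A further pattern was a 2-fold difference from passage 1 in passage 4 and in none of the other 4. It held for 48 genes on the higher side (0.566%) and 40 on the lower side (0.472%). The same rule gave 57, 93, 86 and 203 higher genes and 80, 81, 75 and 168 lower genes for passages 2, 3, 5 and 6, so passage 4 had the fewest of both.

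On the higher side, the OsmC family gene CCM_05279, of a family that reduces organic peroxides in bacteria, had 68.0 FPKM in passage 4 and 17.1 FPKM in passage 1, with 11.2 to 39.8 FPKM in the others. Scytalone dehydratase (CCM_03517), an enzyme of melanin synthesis, had 77.4 FPKM in passage 4 and 31.2 FPKM in passage 1, with 53.0 to 58.6 FPKM in the others. The cytochrome P450 alkane hydroxylase CCM_04659 had 101 FPKM in passage 4 and 29.1 FPKM in passage 1, with 55.3 to 68.7 FPKM in the others. Passage 4 was the highest of the 6 libraries for each of them.

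On the lower side, the cell wall glucanase CCM_02336 had 58.6 FPKM in passage 4 and 126 FPKM in passage 1, with 78.1 to 86.6 FPKM in the others. The adhesin Mad2 (CCM_03590), known from Metarhizium for attachment to plants, had 194 FPKM in passage 4 and 403 FPKM in passage 1, with 242 to 578 FPKM in the others. The regulator pro1 (CCM_02196), required for fruiting body development in Sordaria, had 24.0 FPKM in passage 4 and 44.4 FPKM in passage 1, with 31.2 to 64.4 FPKM in the others. Malate dehydrogenase (CCM_05260) had 558 FPKM in passage 4 and 1025 FPKM in passage 1, with 609 to 695 FPKM in the others. A sterol reductase of the last step of ergosterol synthesis (CCM_00528) had 16.0 FPKM in passage 4 and 28.3 FPKM in passage 1, with 17.9 to 21.7 FPKM in the others. For each of these 5 genes passage 4 was the lowest library.

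These members, too, lay close to the threshold. The median log2 ratio on the higher side was 1.11 in passage 4 and 0.41, 0.77, 0.56 and 0.76 in passages 2, 3, 5 and 6, with a gap of at least 1 log2 to the nearest for 1 of 48 genes. On the lower side it was -1.10 in passage 4 and -0.57 to -0.79 in the others, with such a gap for 2 of 40. Membership held under all 6 other settings for CCM_01198 on the higher side and for CCM_02336, CCM_01607 and CCM_05443 on the lower side. With FPKM as deposited, 11 of the 48 and 10 of the 40 stayed in their groups. Malate dehydrogenase, pro1 and the sterol reductase were not among those 10.

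Passage 4 was then tested against passages 2, 3, 5 and 6 together, with passage 1 left out. No gene of 8483 passed at an adjusted p of 0.05 (0.0%; edgeR's quasi-likelihood test with Benjamini-Hochberg adjustment, two-sided), while 154 had an unadjusted p under 0.05 (1.82%). DESeq2 and limma on log2(FPKM + 1) also called 0, with 175 and 156 genes at an unadjusted p under 0.05. The lowest unadjusted p in edgeR belonged to the hypothetical protein gene CCM_09218, with 6.18 FPKM in passage 4, 21.1 FPKM in passage 1 and 0.73, 0.93, 0.52 and 1.12 FPKM in passages 2, 3, 5 and 6 (log2 difference 2.84). The membrane protein gene CCM_01198 (1.24 log2) and the hydroxylase gene CCM_02405 (1.94 log2) followed. The Hul4 gene CCM_00412 was 3.71 log2 higher in passage 4 and did not pass. With passage number added as a term it was the only gene called, at 5.55 log2 with an edgeR adjusted p of 0.013. The test assumes that the lone passage 4 library varies like the other 4, which are different passages and not labelled replicates.

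Splice junctions were read from the authors' tables of junction reads, with 16633 junctions listed in passage 4 and 14981 in passage 1. Among 2215 splice events, sets of junctions that share a donor or an acceptor, 48 had a junction whose share of reads differed by at least 20 percentage points between passage 4 and passage 1 (2.17%). In 17 of the 48 the junction was classed as intergenic. An unlisted junction is shown at 0% and may hold up to 4 reads.

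At the transcription factor gene RfeG (CCM_06500), the junction from base 322792 to 322916 of scaffold NW_006271973.1 took 26.4% of 220 reads in passage 4 (95% Wilson interval 21.0% to 32.6%) and 100% of 60 reads in passage 1. Passage 5 had 31% of 216 reads, while passages 2, 3 and 6 had 100% of 83, 46 and 63 reads. Passages 4 and 5 stood together at a low share, and the remaining passages had no other junction listed. Glucose-6-phosphate dehydrogenase (CCM_06983), the entry enzyme of the pentose phosphate pathway, had a junction with 37.2% of 1610 reads in passage 4 and 100% of 317 reads in passage 1. Its share was 39.6% and 41.0% in passages 2 and 5 and 100% in passages 3 and 6. The expression of the gene differed by 0.06 log2 between passage 4 and passage 1, while the event had 1610 reads in passage 4 and 317 in passage 1. The part of junction calling in this was not tested.

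The mRNA-binding regulator CCM_03581 had a junction that was not listed among 35 reads in passage 4, which allows up to 10.3%, and that took 85.6% of 188 reads in passage 1. It was also unlisted in passage 3, among 18 reads, and took 84.7%, 87.9% and 100% in passages 2, 5 and 6. The LysM gene CCM_08843 had no listed read of its junction among 55 in passage 4 and 47.2% of 36 in passage 1, and passages 2, 3 and 6 also had none. The kinase gene CCM_09293, singled out after its values were seen, had a junction with 30.1% of 1210 reads in passage 4 and none listed of 1034 in passage 1. It took 29.2% and 29.9% in passages 2 and 5 and was not listed in passages 3 and 6. None of these 5 events set passage 4 apart from every other library.

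Events that did so were few. Over 2165 events, 16 in passage 4 lay at least 10 points from every other library, against 24 in passage 1 and 19, 18, 17 and 30 in passages 2, 3, 5 and 6. At the hypothetical protein gene CCM_05633, chosen after its values were seen, 1 junction took 100% of 33 reads in passage 4 and 72.4% of 58 reads in passage 1, with 69.8% to 76.1% in the others. The Wilson intervals were 89.6% to 100% in passage 4 and 59.8% to 82.2% in passage 1. In the PH domain gene CCM_04516, also chosen afterwards, a junction took 22.6% of 93 reads in passage 4 and 11% of 173 in passage 1, and was not listed in the other 4 passages. A different junction of the kinase gene CCM_09293, chosen afterwards as well, was not listed among 129 reads in passage 4. It took 15.7% of 159 reads in passage 1 and 10.9% to 26.2% in passages 2, 3, 5 and 6.

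**Figure D4:**
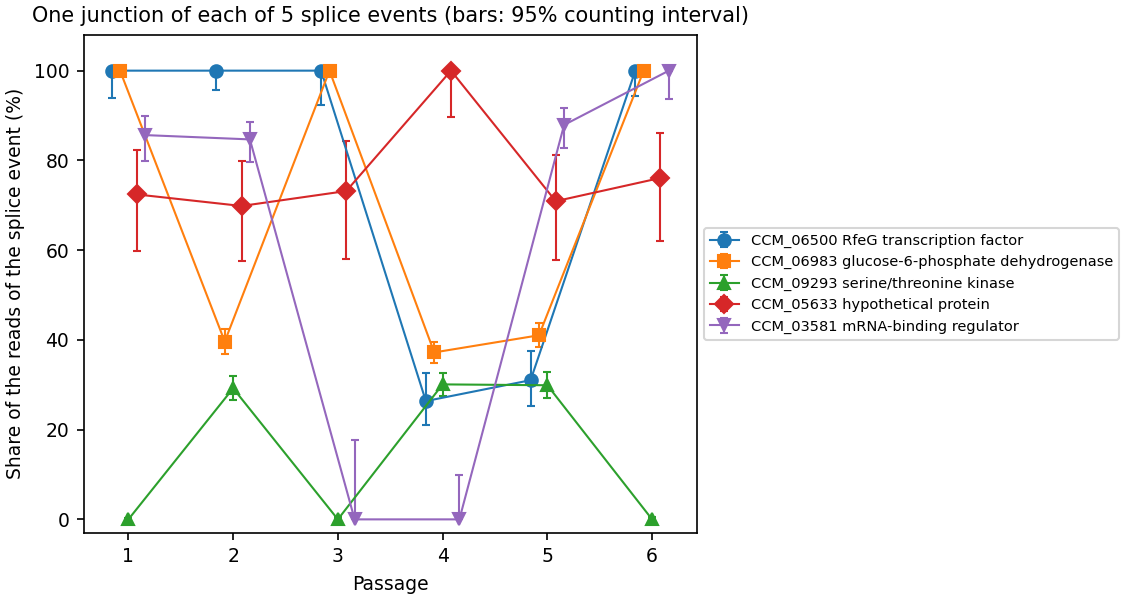
The share of an event's reads taken by 1 junction is plotted in percent for 5 events over passages 1 to 6, with bars for the 95% Wilson interval of counting error. CCM_06500 drops to 26.4% in passage 4 and 31% in passage 5, while CCM_05633 stands at 100% in passage 4 and at 69.8% to 76.1% elsewhere.

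The deposited variant table gave another readout of the same libraries, the share of reads with the alternative base. At 3331 mixed sites, which were given both alleles by the genotype code of at least 1 library and were covered by at least 10 reads in all libraries, the median share was 37.0% in passage 4 and 10.7% in passage 1. It was 33.9%, 20.9%, 37.3% and 35.1% in passages 2, 3, 5 and 6. With the reads of all these sites pooled, passage 1 was the higher one. The pooled share was 39.2% in passage 4 and 54.2% in passage 1, with 38.1% to 44.1% in the others. The medians therefore do not show that passage 1 held less of the alternative base. Passage 4 resembled passages 2, 5 and 6 more than passage 1, in contrast to the level of CCM_00412. The passage 1 median depended on the coverage minimum, at 0% with 20 reads and 41.3% with 5, while the passage 4 median stood at 36.4% and 38.9%.

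A further measure, taken up after these values were seen, was the share of those sites at which each base held at least 10% of reads. It was 76.0% in passage 4 and 7.18% in passage 1, with 74.1%, 40.2%, 76.6% and 73.5% in passages 2, 3, 5 and 6. The sites were chosen by a mixed call in at least 1 library. Such calls numbered 4588 in passage 4 and 1015 in passage 1, and 4559, 3163, 4541 and 4338 in passages 2, 3, 5 and 6. The choice thus favours libraries with many mixed calls. The contrast with passage 1 partly follows from it, and the medians above may do so too. Of 59858 sites covered in all libraries, 132 in passage 4 lay at least 20 points from every other library, against 543 in passage 1 and 308, 422, 132 and 340 in passages 2, 3, 5 and 6. Passages 4 and 5 thus had the fewest sites of their own. The authors' deposited list of RNA editing events held 2481 events in passage 4 and 208 in passage 1, and 2460 of the 2481 and 197 of the 208 lay at a mixed variant site. At CCM_00412, 1046 of 1046 reads over 6 variant sites carried the alternative base in passage 4, and 521 of 521 in passage 1. In passages 2, 3, 5 and 6 it was 2 of 4, 21 of 22, 78 of 78 and 201 of 201 reads.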

How the data were processed

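Members and gene lists were chosen with earlier results of these data known, and the lists and part of the steps follow earlier work on the same files. The deposited table of the authors holds expected counts per gene, which were rounded to whole numbers, and FPKM, per the file headers. The submitters' processing notes name FastQC, Bowtie, TopHat2, Cufflinks, and edgeR, with versions and strand use not given in the sources used here. Overlapping and antisense genes therefore could not be told apart, and near-identical copies are uncertain. The authors also deposited junction read counts per library, a variant table with a quality score and other genotype codes and read numbers per site, editing frequencies as a fraction of reads, and tables of log2 ratios with a p-value and FDR for each later passage. The authors' deposited table for passage 4 lists 2006 genes, 1511 higher and 495 lower in passage 4. Another 56 columns with values per sample stayed unused.

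Ratios are log2 of TMM-scaled CPM with a prior count of 1, from edgeR 4.0.16 in R 4.3.3, over genes whose mean was at least 1 FPKM; printed FPKM are as deposited and not TMM-scaled, so they need not match the ratios. Intervals are 95% counting intervals (binomial for pairs of counts, Wilson for shares) and leave out variation between cultures; amplified reads are not independent molecules. Junction events needed at least 20 reads in both libraries of a comparison. Passage 4 was tested against passages 2, 3, 5 and 6 with edgeR's quasi-likelihood test and Benjamini-Hochberg adjustment, with DESeq2 1.42.0 and limma 3.58.1 as alternatives; the scripts were tested on simulated data. Other steps used Python 3.11.15, pandas 2.3.3, numpy 2.4.6, scipy 1.17.1, statsmodels 0.14.6 and matplotlib 3.10.9. Named genes were, among products with a name, the 12 highest and 12 lowest ratios with at least 10 FPKM, up to 12 per direction by gap for genes apart in passage 4, up to 8 per direction for genes apart elsewhere, the extremes of each list, the cordycepin genes and the 10 widest junction differences; the text gives a part of them, and the lowest p-values of the test. Names come from the deposited product text; all 9651 reference genes matched RefSeq's CmilitarisCM01_v01 table, used for gene order and length only. The 6 other settings for sets of genes were DESeq2's size factors, FPKM as deposited, the length trend removed, no filter, a mean of at least 5 FPKM and a prior count of 5. One gene that the rule names is not reported here.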

Additional observations from a re-analysis of the deposited data

Results flagged for a closer look

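Catalase A (CCM_02506) is singled out because its ratios to passage 1 differed in direction between passages. Its log2 ratio over passage 1 was 1.00 in passage 4, while it was -3.10, -1.88, -1.43 and -0.14 in passages 2, 3, 5 and 6. The difference was not shown by a test: in edgeR's fit of passage 4 against passages 2, 3, 5 and 6 the gene was 2.26 log2 higher in passage 4 and did not pass after adjustment. In passage 6 the direction depended on scaling, since FPKM as deposited was 67.8 in passage 6 and 63.2 in passage 1.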

How the results depend on the processing

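No paired analysis was possible because each passage has 1 library. With FPKM as deposited, 1468 genes were at least 2-fold higher in passage 4 than in passage 1 and 479 lower, 8 were above and 2 below every other library, and 81 were higher and 19 lower in passage 4 only. With no filter, 27 genes were above and 19 below every other library. With a mean of at least 5 FPKM these were 2 and 1, and 30 genes were higher in passage 4 only; with a prior count of 5, 1 was below every other library. With the length trend removed, 28 genes were higher and 33 lower in passages 2, 3, 5 and 6 but not in passage 4, and 13 of the 48 and 9 of the 40 genes 2-fold from passage 1 in passage 4 only were still in those groups. In that setting the ABC transporters lay at 0.0028 and the antioxidant enzymes at -0.089 log2 relative to all genes, opposite in sign to the values above. The cause of these shifts was not tested. The test of passage 4 called 1 gene with passage number as a term and 0 in edgeR with any of passages 2, 3, 5 and 6 left out; without passage 6, 595 genes had an unadjusted p under 0.05. Splice events apart numbered 80 at 10 reads, 15 at 50 reads and 147 at a difference of 10 points. With at least 20 reads the median share of alternative reads was 32.0% in passage 2 and 15.0% in passage 3. With at least 5 reads it was 41.3%, 36.4%, 33.3%, 38.9%, 38.7% and 37.9% in passages 1 to 6.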
